A study of Mus musculus with 3 samples.

Results

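Chromatin accessibility was examined at 10 genes of DNA methylation, Polycomb regulation and 2-oxoglutarate metabolism: Dnmt1, Dnmt3a, Dnmt3b, Tet1, Tet2, Tet3, Asxl1, Idh1, Idh2 and Ezh2. They are 10 of 21559 protein-coding genes of chromosomes 1 to 19 and X, and were taken by name as a group of known function, with earlier results of these data known. For each gene the body and 30 kb on either side were divided into 500-bp bins. The cells were HSCs sorted as LSKCD150+CD48−CD34− cells from the c-Kit-enriched bone marrow of wild-type C57BL/6 female mice aged 8 weeks, with no treatment and no second condition. DOGMA-seq, which reads open chromatin (ATAC), RNA and antibody tags from the same cells, gave 1 library of each kind from this 1 preparation. No value below therefore has a replicate, and the intervals given are exact 95% intervals that cover counting error only. All 3757 barcodes called as cells carried both ATAC and RNA counts, so they are the same cells in both libraries. The 3108 with more than 3000 fragments in peaks were kept (82.7%). Doublets were not removed, and the sources used here do not give the number of mice pooled.

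Methylation of cytosine is copied onto new DNA by DNMT1 and laid down afresh by DNMT3A and DNMT3B, while the TET enzymes oxidize the methyl group and so open the way to its removal. TET enzymes use 2-oxoglutarate, which IDH1 makes in the cytosol and IDH2 in mitochondria. EZH2 is a catalytic subunit of Polycomb repressive complex 2, which methylates histone H3, and ASXL1 activates the deubiquitinase BAP1, which acts on histone H2A. In blood, DNMT3A, TET2 and ASXL1 are the genes most often mutated in clonal hematopoiesis, in which the progeny of a mutated HSC expands. IDH1, IDH2 and EZH2 are known from myeloid neoplasms, whereas DNMT1, DNMT3B, TET1 and TET3 are here as relatives. No mutation was read in these data.

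The kept cells held 37137164 fragments on chromosomes 1 to 19 and X, with a median of 11457 fragments and 3860 RNA UMIs per cell. The range was 3977 to 194399 fragments per cell. Of the main promoters of markers of other cell types, 0 of 4 B cell, 0 of 4 T cell and 0 of 4 neutrophil promoters were open, and 1 of 4 stromal and endothelial promoters (Cxcl12, 176). All 4 megakaryocyte promoters and 6 of 8 HSC promoters were open, the others being Ly6a (38) and Slamf1 (110). Of all protein-coding main promoters 55.4% were open. In these 12 lymphoid and neutrophil genes, 0.0322% (Ly6g) to 2.16% (Pax5) of cells had a promoter fragment, which sets the level of a closed window in this library.

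Sequences of 12 windows are shown as examples of the places described below: a closed and an open start of Tet1, the main promoters of 4 other genes, and 6 off-promoter sites of 687 to 1269 fragments. They are not a full set of the strongest sites. They were read from the RefSeq copy of GRCm38, the build of the fragments (mm10). Promoter windows run 5′ to 3′ on the strand of the gene, from 250 bp before to 49 bp after its start, and the other windows are 201 bp of the plus strand around the summit. Capitals mark matches to the strings searched, on either strand. Factors of the GATA family, which govern blood lineages, were given the string AGATAA, and also the variant that reads TGATAA. For ETS factors such as PU.1 the string CCGGAAGT was searched, and with it the variant GAGGAAGT. TGTGGT stood for RUNX factors, which are required for HSCs to form. The E-box of basic helix-loop-helix factors was read as CAGCTG, or in its MYC form as CACGTG. The SP and KLF families were searched by the GC box, GGGCGG. ATGGCGGC was used for the regulator YY1, and the palindrome TGACGTCA for the cyclic AMP response element (CRE). The homeodomain factors of the MEIS family were given TGACAG, and the ubiquitous promoter factor NFY was given CCAAT. With N for any base, AP-1 was searched as TGANTCA, the STAT factors of cytokine signaling as TTCNNNGAA, and the repressor GFI1 as AATCNNNGC. The NRF1 palindrome and the CTCF core were searched as well. CCAAT and the GFI1 string can share bases.
Tet1 main start, chr10:62899069-62899368, minus strand: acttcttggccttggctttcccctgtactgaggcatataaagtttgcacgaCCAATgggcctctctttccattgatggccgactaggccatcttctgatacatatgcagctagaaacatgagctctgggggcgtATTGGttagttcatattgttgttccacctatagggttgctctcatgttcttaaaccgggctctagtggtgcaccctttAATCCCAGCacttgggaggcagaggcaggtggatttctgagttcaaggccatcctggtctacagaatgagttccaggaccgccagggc
Tet1-210 start, chr10:62887463-62887762, minus strand: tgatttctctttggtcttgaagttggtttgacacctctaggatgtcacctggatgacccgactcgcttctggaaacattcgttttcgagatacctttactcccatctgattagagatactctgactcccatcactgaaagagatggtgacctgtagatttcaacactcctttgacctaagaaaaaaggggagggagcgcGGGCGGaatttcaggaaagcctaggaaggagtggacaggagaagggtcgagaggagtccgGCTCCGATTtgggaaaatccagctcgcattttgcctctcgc
Dnmt1 main start, chr9:20952930-20953229, minus strand: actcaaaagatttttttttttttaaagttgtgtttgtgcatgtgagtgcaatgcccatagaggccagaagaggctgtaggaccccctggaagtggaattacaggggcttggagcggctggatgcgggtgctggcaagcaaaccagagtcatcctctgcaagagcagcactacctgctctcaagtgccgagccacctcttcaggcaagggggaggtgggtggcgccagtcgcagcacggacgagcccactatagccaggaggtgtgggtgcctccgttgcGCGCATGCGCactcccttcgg
Dnmt3a main start, chr12:3806780-3807079, plus strand: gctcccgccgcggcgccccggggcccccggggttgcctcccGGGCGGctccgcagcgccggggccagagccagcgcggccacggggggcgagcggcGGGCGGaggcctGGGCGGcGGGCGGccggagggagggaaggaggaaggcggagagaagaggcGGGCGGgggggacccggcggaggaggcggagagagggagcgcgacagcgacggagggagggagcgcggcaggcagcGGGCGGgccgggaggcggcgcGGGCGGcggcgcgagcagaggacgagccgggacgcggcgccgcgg
Idh1 main start, chr1:65186430-65186729, minus strand: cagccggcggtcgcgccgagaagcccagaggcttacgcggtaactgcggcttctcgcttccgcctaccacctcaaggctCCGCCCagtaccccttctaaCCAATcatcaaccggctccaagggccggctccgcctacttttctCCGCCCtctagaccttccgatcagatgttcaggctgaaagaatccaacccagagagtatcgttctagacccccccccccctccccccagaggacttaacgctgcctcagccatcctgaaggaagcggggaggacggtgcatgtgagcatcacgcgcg
Ezh2 main start, chr6:47594981-47595280, minus strand: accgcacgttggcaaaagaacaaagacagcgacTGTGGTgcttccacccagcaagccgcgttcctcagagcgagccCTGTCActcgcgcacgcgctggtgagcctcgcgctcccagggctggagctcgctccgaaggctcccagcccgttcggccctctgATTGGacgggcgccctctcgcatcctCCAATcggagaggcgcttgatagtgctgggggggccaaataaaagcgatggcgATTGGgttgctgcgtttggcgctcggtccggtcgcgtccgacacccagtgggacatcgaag
Dnmt3a intron 1 site, chr12:3834489-3834689: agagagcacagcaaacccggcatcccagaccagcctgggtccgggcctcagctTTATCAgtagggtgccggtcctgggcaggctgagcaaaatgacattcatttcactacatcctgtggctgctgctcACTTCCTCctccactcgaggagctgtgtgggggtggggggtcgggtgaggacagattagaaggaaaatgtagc
Dnmt3a intron 3 site, chr12:3855820-3856020: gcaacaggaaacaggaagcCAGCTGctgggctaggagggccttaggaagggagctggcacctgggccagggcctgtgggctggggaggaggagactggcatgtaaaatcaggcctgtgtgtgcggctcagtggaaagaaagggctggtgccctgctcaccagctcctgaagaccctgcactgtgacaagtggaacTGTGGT
Dnmt3a upstream site, chr12:3791876-3792076: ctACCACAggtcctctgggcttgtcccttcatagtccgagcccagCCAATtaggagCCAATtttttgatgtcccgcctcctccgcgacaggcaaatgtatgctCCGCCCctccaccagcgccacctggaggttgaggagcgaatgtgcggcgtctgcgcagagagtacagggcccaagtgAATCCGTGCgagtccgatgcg
Zfp710 intron site of the Idh2 locus, chr7:80079024-80079224: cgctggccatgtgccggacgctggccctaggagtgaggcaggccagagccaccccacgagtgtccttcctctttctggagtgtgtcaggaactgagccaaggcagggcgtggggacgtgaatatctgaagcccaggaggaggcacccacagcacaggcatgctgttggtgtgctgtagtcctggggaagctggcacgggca
Dnmt3b upstream site, chr2:153639290-153639490: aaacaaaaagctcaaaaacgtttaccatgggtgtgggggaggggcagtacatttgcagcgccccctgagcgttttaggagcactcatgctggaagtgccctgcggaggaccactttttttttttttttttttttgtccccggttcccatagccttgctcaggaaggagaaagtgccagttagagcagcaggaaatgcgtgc
Tet3 upstream site, chr6:83473326-83473526: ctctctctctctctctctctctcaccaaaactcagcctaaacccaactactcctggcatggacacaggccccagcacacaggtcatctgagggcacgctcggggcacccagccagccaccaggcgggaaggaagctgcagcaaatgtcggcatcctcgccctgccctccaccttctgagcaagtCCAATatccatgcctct

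The first question was which of the 10 genes had an open promoter in HSCs. The main start of a gene was that of its principal protein-coding transcript, and the window spanned 500 bp on either side. A window was called open at 10 times the genome mean, which was 16.9 fragments per window. By this measure 9 of the 10 main promoters were open, against 55.4% of all protein-coding promoters. The starts not given above lay at chr2:153649450 (Dnmt3b), chr3:133544390 (Tet2), chr6:83456392 (Tet3), chr2:153345845 (Asxl1) and chr7:80115392 (Idh2). The exception was Tet1, and it depended on the choice of start, as described further on. The members' median was 1663 fragments, the median of all genes 254 and that of all open promoters 877.

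Among the methyltransferases, Dnmt1 had the most fragments of the 10 main windows, with 2722 fragments (interval 2621 to 2826), 161 times the genome mean and at the 94.9th percentile of all genes. The de novo enzymes were lower, Dnmt3a at 1478 fragments (1404 to 1555, 87.5 times) and Dnmt3b at 834 (778 to 893, 49.4 times). The intervals of these 3 genes did not overlap. The Dnmt3a window holds only a part of the open region at that start. The whole open site was 3000 bp long, and its summit lay 600 bp upstream of the main start, near starts of other Dnmt3a transcripts. Over whole open sites the order turned, with 2814 fragments (2711 to 2920) for Dnmt1 against 3023 (2916 to 3133) for Dnmt3a, intervals that just overlap.

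At the main starts used here Tet3 had the highest TET promoter, with 2048 fragments (1960 to 2139) and 121 times the genome mean. At its only RefSeq start it had 811 (756 to 869), an interval that overlaps that of Tet2. Tet2, the TET gene most often mutated in clonal hematopoiesis, had 733 (681 to 788) and 43.4 times. In this window it was the lowest of the 9 open main promoters. It shared its 1500-bp open site with the start of the antisense transcript Gm42567, which lies 707 bp upstream on the other strand. Over whole open sites Tet2 had 976 fragments (916 to 1039), above Idh2 with 953 (893 to 1015) and Dnmt3b with 885 (828 to 945). These intervals overlap. The Tet1 main window held 9 fragments (4.12 to 17.1), 0.533 times the genome mean.

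Ezh2 had 2283 fragments (2190 to 2379) and 135 times the genome mean, second to Dnmt1, and Asxl1 had 1848 (1765 to 1934) and 109 times. Idh1 had 1894 fragments (1810 to 1981), and Idh2 had 780 (726 to 837), at the 89.0th and 69.9th percentiles. Idh1 and Asxl1 differed by less than their counting intervals, as did Idh2 and Tet2. Asxl1 and Idh1 each share an open site with a gene of the other strand. A start of the noncoding 2500004C02Rik lies 35 bp upstream of Asxl1, and that of Pikfyve, a phosphoinositide kinase gene, lies 204 bp upstream of Idh1. Fragments between such starts cannot be assigned to 1 of the genes.

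At least 1 fragment at the main promoter was found in 54.4% of cells for Dnmt1 (1690 of 3108), 47.0% for Ezh2, 42.8% for Idh1, 42.5% for Tet3, 40.7% for Asxl1 and 34.4% for Dnmt3a. Dnmt3b (20.1%), Idh2 (19.2%) and Tet2 (18.6%) were lower in this window, and Tet1 was at 0.290% (9 cells), within the range of the closed marker promoters above. Counting intervals were about as wide as the steps within the upper group from Idh1 to Asxl1 and within the lower group, so the order inside them is not settled. For Dnmt1 the interval was 52.6% to 56.1%. The place of Dnmt3a was set by the width of the window: with 250 bp on either side its interval was 17.7% to 20.5%, near Dnmt3b (16.6%) and Idh2 (16.5%), and with 1000 bp its share was 51.1%, near Ezh2 (50.1%).

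These shares moved with depth. Of the 1036 cells with the fewest ATAC fragments (median 8119) 43.3% had a Dnmt1 fragment, and of the 1036 with the most (median 14574) 62.7%. For Dnmt3a the shares were 26.1% and 42.2%, and for Ezh2 34.6% and 58.5%. With each kept cell thinned to 3000 fragments, Dnmt1 was at 19.7%, Ezh2 at 16.5%, Dnmt3b at 6.56% and Tet2 at 5.79%. A cell without a fragment is thus not shown to have a closed promoter. The 649 called cells left out by the filter had a median of 1662 fragments, and 12.3% of them had a Dnmt1 fragment and 3.24% a Tet2 fragment. Per 1000000 fragments, however, the Dnmt1 promoter had 68.9 in the cells left out and 73.3 in the kept cells, and the Tet2 promoter 18.0 and 19.7. Dnmt3b (16.4 and 22.5) and Idh2 (15.7 and 21.0) were farther apart, while Asxl1 (54.0 and 49.8) and Idh1 (54.0 and 51.0) were higher in the cells left out. Only 20 of the cells left out had a Dnmt3b fragment and 18 an Idh2 fragment, and no intervals were computed for these rates.

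**Figure D1:**
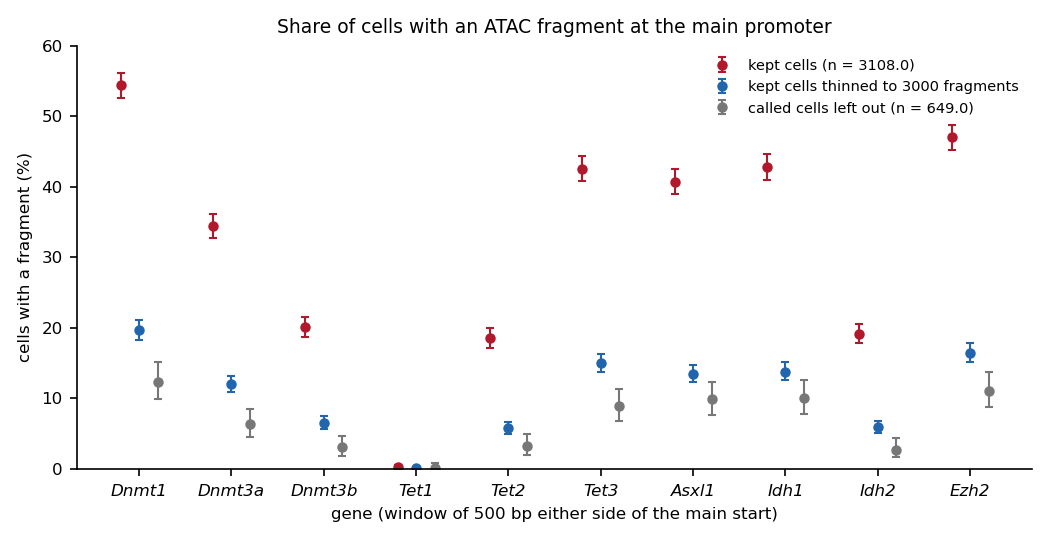
Share of cells in percent (vertical axis) with an ATAC fragment within 500 bp of the main start of each gene (horizontal axis), for kept cells, for the same cells thinned to 3000 fragments and for called cells left out; bars are exact 95% binomial intervals. Dnmt1 was highest in each of the 3 sets and Tet1 lowest, and Dnmt3b, Tet2 and Idh2 lay below the other open promoters.

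Within a cell, a median of 3 of the 10 main promoters had a fragment. None was covered in 99 cells (3.19%), 3 were covered in 744 (23.9%), and the highest number, 9, was reached in 2 cells. After thinning, the median was 1 and 31.4% of cells had none.

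Alternative starts were taken as those of other protein-coding transcripts more than 1000 bp from the main start. The 10 genes had 14 such starts or groups of starts, and 4 were open, against 21.3% of such windows over all genes. At Tet1 the choice of start decided whether the promoter was called open. Its transcripts 210 and 207 start 11606 bp downstream of the main start, in what is intron 1 of the main transcript, and that window held 335 fragments (300 to 373), 19.8 times the genome mean and 37.2 times the main window (interval 19.4 to 82.1). This ratio rests on the 9 fragments of the main window, and was 19.6 with 1000 bp on either side and 113 with only those fragments that are shorter than the DNA around a nucleosome core. A fragment there was found in 9.07% of cells. The open site within 1000 bp of this start was 1500 bp long, with 750 fragments and 18.5% of cells, but its summit lay farther into the gene, 13016 bp from the main start, so not all of its fragments lie at the start.

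RefSeq places its only Tet1 start in the table used here at the start of transcript 207, and 437 fragments fell within 500 bp of it. With RefSeq starts all 10 genes had an open promoter, and so they had when each gene was given its strongest annotated start, by which 58.3% of all genes were open. At its strongest start Tet1 was at the 56.1th percentile. The closed main window of Tet1 is 85.2% soft-masked in the reference, that is, marked as repeat, whereas the window of the open start is at 0%. The medians were 7.09% for open and 12.4% for closed promoters of all genes. Reads from repeats can be lost when they map to several places, and the part of this in the low count of the Tet1 main window was not tested. A site of 183 fragments lay at the start of the noncoding transcript Tet1-202, in intron 2. The other protein-coding Tet1 starts held 31 fragments (transcript 209), 12 (208) and 3 (201).

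The other open alternative starts were weaker than their main promoter. Tet3-202, at the start that RefSeq gives for Tet3, lies 14717 bp downstream of the main start and had 811 fragments, 0.396 of the main window (0.365 to 0.430). A noncoding RNA, B230319C09Rik, starts in the same open site on the other strand. Dnmt3a transcripts 205 and 203, which start 84698 bp into the gene, had 690 fragments and 0.467 of the main window (0.426 to 0.511). A shorter DNMT3A protein is known to come from an internal promoter of this gene. Idh1-201, 7298 bp downstream, had 585 fragments and 0.309 of the main window (0.281 to 0.339). This last ratio was 0.584 with 1000 bp on either side, and 0.157 with only the fragments shorter than the DNA around a nucleosome core. At the Dnmt3a and Idh1 starts the summit of the open site lay farther into the gene, 85829 and 8092 bp from the main start.

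The remaining alternative starts were near the genome mean. The upstream start of Dnmt1 (transcript 202, 6909 bp before the main start) had 16 fragments, 0.948 times the mean. Ezh2-202 had 8 fragments, Idh1-202 11, Tet3-204 35, and the other 3 starts of Dnmt3a between 18 and 36.

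**Figure D2:**
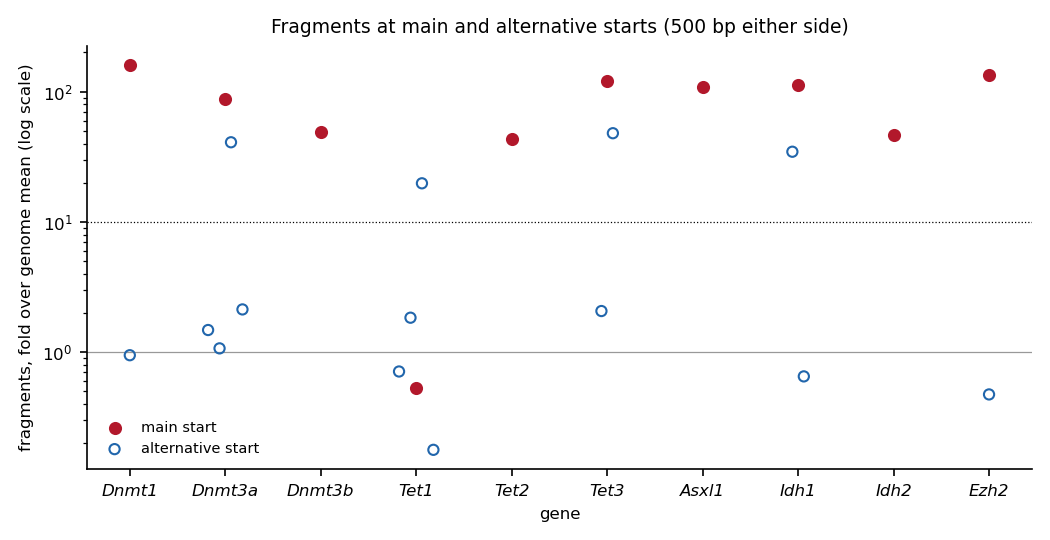
Fragments within 500 bp of the main start (filled points) and of alternative starts (open points) of each gene, as fold over the genome mean on a log axis; the dotted line is the limit of 10 times for an open window and the grey line the genome mean. Tet1 is the gene whose main start (0.533 times) lies below an open alternative start (19.8 times).

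CpG content was a property that the choice of genes did not use. In the 9 open main windows the observed over expected ratio of CpG was 0.593 (Dnmt1) to 0.980 (Dnmt3a), with 8 of the 9 at 0.6 or above, as were 79.6% of all open promoters and 8.88% of closed ones. The Tet1 main window was at 0.270 and its open alternative start at 0.546. The Dnmt3a window was the richest in G and C, at 80.9%, and that of Idh1 the poorest of the open ones, at 57.1%.

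The promoter sequences shown above differed in the strings they hold. The GC-box string GGGCGG was found in 7 of the 9 open promoters (77.8%, against 68.5% of 11938 open promoters), 7 times in Dnmt3a, and in neither Dnmt1 nor Ezh2. The 10-base NRF1 string stood at the Dnmt1 start, as in 2.09% of all open promoters. CCAAT was found in 3 of the 9, with 3 matches in Ezh2, against 38.0% of all, and TGTGGT in Asxl1 and Ezh2, against 11.3%. GATA, ETS, YY1, CTCF, AP-1, CRE and STAT strings were found in 0 of the 9, and in 8.80%, 10.6%, 4.71%, 0.913%, 3.96%, 3.69% and 6.37% of all open promoters. A match is a description of letters and does not show that a factor was bound.

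Next, the loci were searched for open sites away from promoters. A bin was open at 10 times the genome mean of 9.71 fragments, touching open bins were joined into 1 site, and a site was called off-promoter when it lay more than 1000 bp from every annotated start. In the 10 loci 5.84% of the 2516 bins were open, against 1.44% of bins genome-wide, and they formed 58 sites. Of these, 14 lay at starts of the 10 genes, 12 at starts of other genes and 32 off promoters, 14 of them inside the body of one of the 10 genes. The loci were built around genes, whereas the genome-wide share takes in sequence far from genes. Loci around other genes were not counted, so these shares do not show an enrichment particular to this group.

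**Figure D3:**
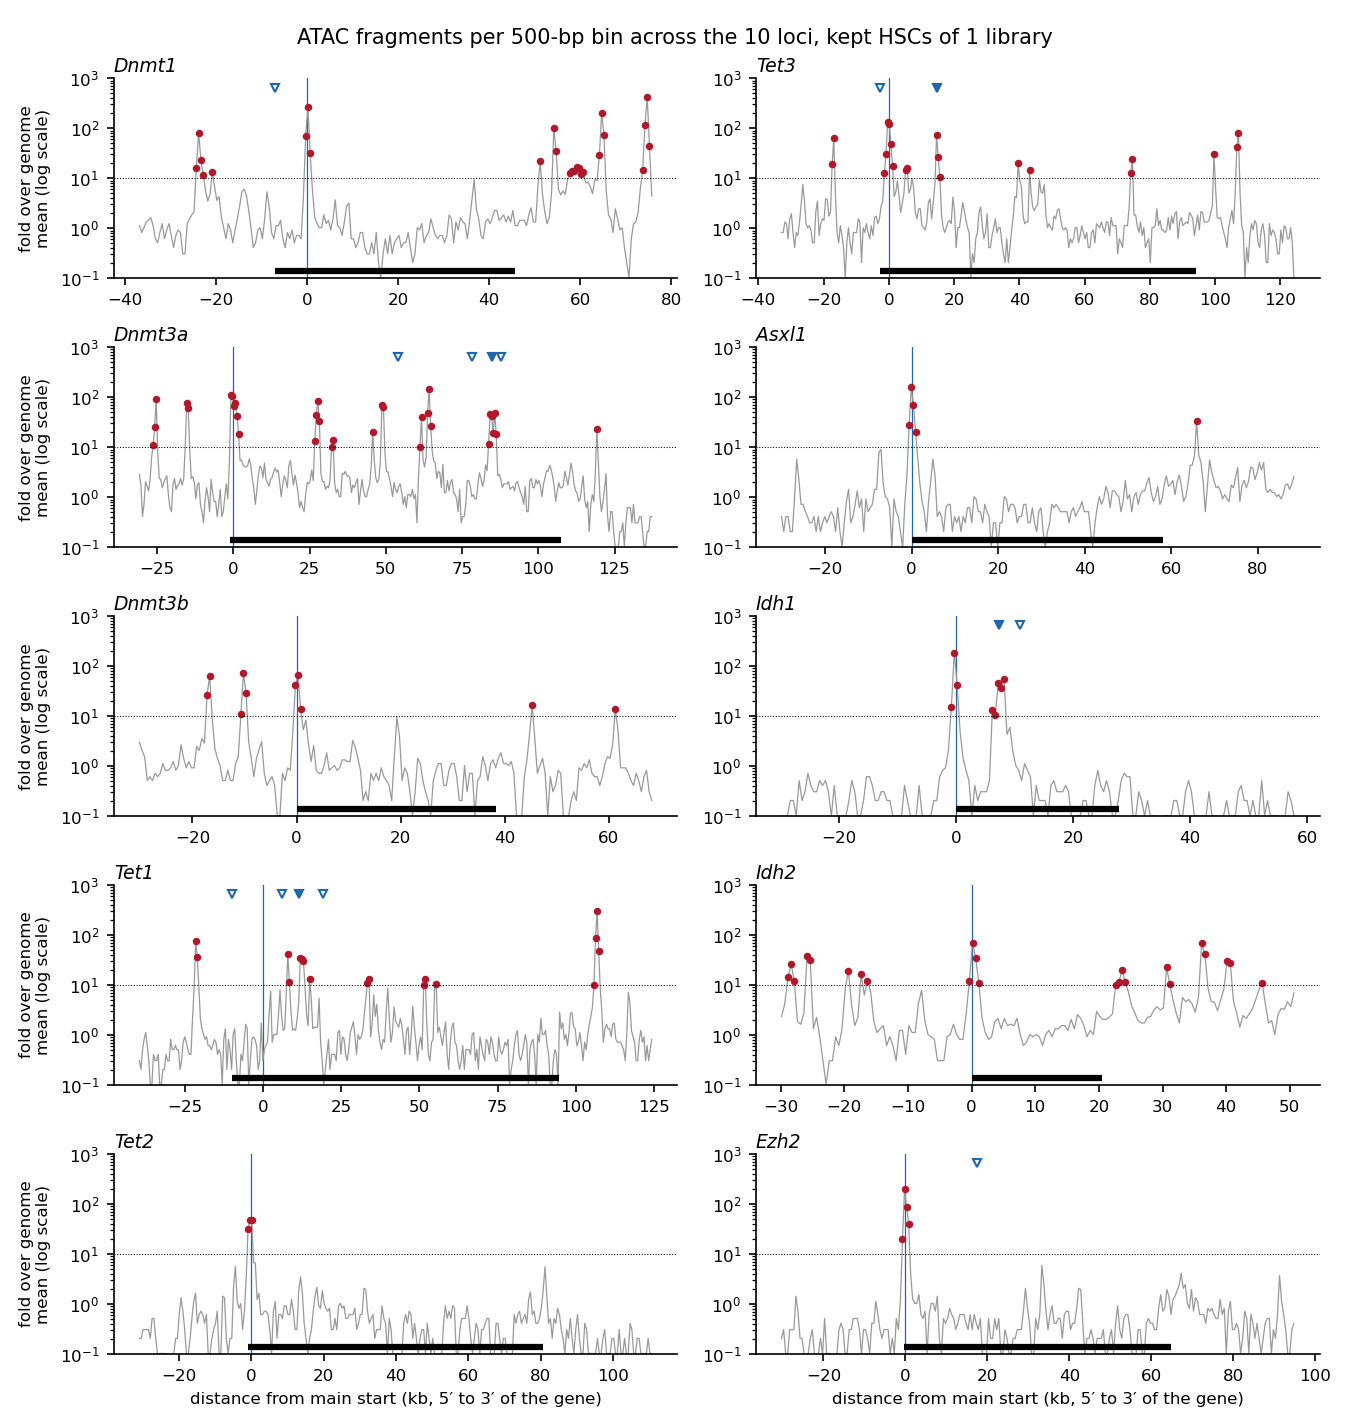
Fragments of the kept cells per 500-bp bin as fold over the genome mean (log axis) against distance from the main start in kb, 1 panel per locus; red points are open bins, the dotted line is the limit of 10 times, the black bar the gene body, and triangles the alternative starts, filled where open. Dnmt3a carried open bins at its starts, in its introns and in both flanks, whereas Tet2 and Ezh2 had them at the promoter alone.

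Dnmt3a had 8 off-promoter sites, 6 of them in its introns, and these 8 held 40.3% of all fragments of the locus, 1.39 times as many as the sites at its own starts. Away from starts, 16 of 180 bins of the Dnmt3a body were open (8.89%). Over all genes with an open main promoter and a body of at least 20 kb, 1.09% of such bins were open, and Dnmt3a stood at the 97.1th percentile of these 6629 genes. The strongest site, in intron 4, held 1749 fragments (1668 to 1833) and was covered in 37.8% of cells. That is more than the 34.4% of the main promoter window but less than the 54.7% of the whole open site at the main start. It ranked 215 among 21221 off-promoter sites of the genome, whose median was 196 fragments.

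The next Dnmt3a sites lay in intron 1 (chr12:3833501-3835500, 1269 fragments, 29.1% of cells) and intron 3 (chr12:3855501-3856500, 1042 fragments, 23.7%). Upstream, at chr12:3791501-3792500 and 15054 bp before the main start, a site had 910 fragments and 23.8% of cells. The weaker Dnmt3a sites had 186 to 433 fragments, and the 1 beyond the 3′ end of the gene, at chr12:3926001-3926500, held a CTCF string.

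Dnmt1 and Dnmt3b had no open bin in their bodies away from starts. Dnmt3b had 3 off-promoter sites outside its body. The strongest lay at chr2:153638501-153640000, 10060 bp upstream. It held 821 fragments and 20.3% of cells, against 885 and 21.0% for the Dnmt3b promoter site, also 1500 bp long. The others had 162 fragments 45215 bp downstream, with 2 CTCF strings, and 135 in an intron of Dnmt3c, a neighbouring methyltransferase gene known from the male germline. For Dnmt1 a site of 211 fragments lay 51341 bp downstream. A broad one of 3500 bp, chr9:20892001-20895500, had 696 fragments, but its highest bin was 17.0 times the genome mean.

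The TET loci differed. Tet2 had 1 open site in 141 kb, its promoter, with 3 open bins of 284 and 0 of 140 in its body away from starts. Tet1 had 4 off-promoter sites, all within its body and weak to moderate: 438 fragments in intron 1 at chr10:62890501-62891500, 7903 bp after the main start, then 162 and 100 in intron 3 and 130 in intron 1. Tet3 had 6, 4 of them in its body, where 4.07% of bins away from starts were open. The strongest lay 17034 bp upstream at chr6:83473001-83474000, with 687 fragments and 16.8% of cells. It was followed by 294 fragments in intron 5 and by 292 in an intron of Bola3, an iron-sulfur cluster gene, where the window holds a CTCF and a GATA string. These counts moved with the limit for an open bin. At 20 times the genome mean Tet1 had 1 off-promoter site and Tet3 had 3, and at 5 times Tet2 had 2.

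Asxl1, Idh1 and Ezh2 had few sites. Ezh2 had 1 open site in 125 kb, of 2000 bp with 2532 fragments and 50.1% of cells, which held 73.9% of the fragments of its locus. Idh1 had its 2 starts and no off-promoter site, and these held 89.6% of the fragments of the locus. Asxl1 had 1, in an exon of the neighbouring Nol4l, with 322 fragments and 8.66% of cells. An absence of open body bins was common: 51.8% of the 6629 genes had none.

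Idh2 had 8 off-promoter sites, but all lay outside its body, and together they held 2.69 times the fragments of its own promoter site. With a flank of 10 kb 1 of them was left, so this count rests on the width of the flank. The strongest was in an intron of Zfp710, a zinc finger gene, at chr7:80078501-80079500, with 858 fragments and 20.8% of cells, against 22.5% for the Idh2 promoter site. Upstream, sites of 495 fragments (25619 bp before the start) and 381 (28144 bp before) followed. Nothing here shows which gene such a site acts on.

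**Figure D4:**
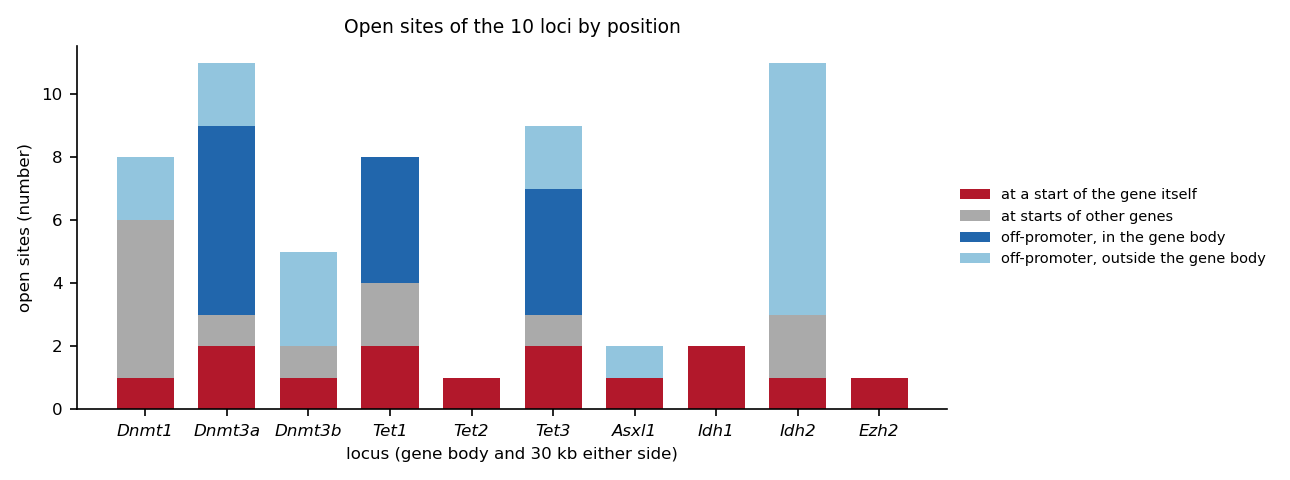
Number of open sites (vertical axis) in each locus (horizontal axis), by position: at a start of the gene itself, at starts of other genes, off promoters within the gene body, and off promoters outside it. The 14 off-promoter sites in gene bodies belong to Dnmt3a (6), Tet1 (4) and Tet3 (4), and the 8 of Idh2 lie outside its body.

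Starts of other genes accounted for some of the strongest sites of the loci. Near Dnmt1 the site within 1000 bp of a start of Angptl6, an angiopoietin-like gene, had 4638 fragments, that of Ppan, a ribosome assembly factor, 2268, and that of Eif3g, a translation initiation factor, 1062. Both sites at S1pr2, a sphingosine-1-phosphate receptor gene, had 974 and 129. In the Tet1 locus the Ccar1 promoter had 3493 fragments and that of Slc25a16, a mitochondrial carrier, 878. Dtnb (1049), Commd7 (727), Bola3 (924) and the noncoding Gm21057 (437) and Gm44949 (391) were the others. Dnmt3bos, an antisense transcript, starts 836 bp downstream of Dnmt3b in the same open site.

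The 32 off-promoter windows of 201 bp were set beside those of all 21221 off-promoter sites. A GATA string was found in 3 (9.38%, against 16.1% of all), ETS in 1 (3.12% and 6.50%), RUNX in 7 (21.9% and 23.9%), E-box in 6 (18.8% and 18.8%) and CTCF in 5 (15.6% and 11.7%). SP and KLF was in 4 (12.5% and 11.1%), AP-1 in 3 (9.38% and 9.43%), MEIS in 4 (12.5% and 14.1%), NFY in 7 (21.9% and 19.9%) and STAT in 1 (3.12% and 5.59%). The GFI1 string was in 5 (15.6%, against 5.60%), and NRF1, YY1 and CRE in 0, against 0.127%, 0.372% and 0.617%. Sites of 1 locus share their neighbourhood, so these are counts and not independent draws.

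Fragment length was a further readout. Short fragments are those shorter than the DNA wrapped around a nucleosome core, and are usually taken to come from stretches free of nucleosomes. They made up 53.9% of fragments at the 9 open main promoters and 56.1% at the 32 off-promoter sites. At all open promoters the share was 57.9%, with a median of 52.8% per promoter, and at all open bins away from starts it was 50.0%, with a median of 48.1%. The last share was taken over 33653 single bins and not over joined sites, so it is not a like measure for the 32 sites. The open promoters of the 10 genes spread widely, from 37.6% at Dnmt3a (interval 35.1% to 40.1%) to 67.1% at Idh1 (64.9% to 69.2%). Dnmt1 (58.1%) and Asxl1 (60.5%) lay on the side of Idh1, while Dnmt3b, Tet2, Tet3, Idh2 and Ezh2 lay between 48.8% and 51.5%. The Dnmt3a intron 4 site, at 67.1%, was above the 49.5% of the whole open site at the Dnmt3a main start, and the site at the open Tet1 start had 35.2%.

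Cells rich and poor in RNA were then compared at a given ATAC depth, to ask whether these loci were opened more in cells with more RNA. Within each decile of ATAC fragments the cells in the upper and lower tercile of RNA UMIs were taken, 1040 RNA-rich cells (median 4966 UMIs) and 1030 RNA-poor cells (2881), with median ATAC fragments of 11456 and 11459. Each value is the ratio of the share of a group's fragments that fell in a window. Of the 9 open promoters 0 were over 25% higher or over 20% lower in RNA-rich cells, against 10.0% of all promoters with at least 100 fragments. Many of those have fewer fragments, and so wider counting error, than these 9, and 0 of 9 is near that background. The ratios ran from 0.917 (Idh2, interval 0.769 to 1.09) to 1.11 (Tet2, 0.923 to 1.33), and every interval included 1. For Idh1, at 0.919 (0.821 to 1.03), the interval fell below 1 under 3 alternatives: 0.855 (0.751 to 0.975) with quartiles in place of terciles, 0.876 (0.774 to 0.992) without the 10% of cells with the most fragments, and 0.802 (0.718 to 0.896) without matching on ATAC fragments. Over all tested promoters the median was 0.998 and the 5th to 95th percentiles were 0.805 to 1.26. Tet1, with 3 fragments in each group, was not tested. Since cells are not replicates, no p-value is given.

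For the summed off-promoter sites of each locus, 5 of the 7 loci that have such sites had intervals that included 1, with Dnmt3a at 0.963 (0.905 to 1.02) from 2040 and 1972 fragments. Those of the Dnmt1 locus, in the gene-dense flank and outside Dnmt1, had a ratio of 1.28 (1.08 to 1.51), and those in the Tet1 body 0.834 (0.702 to 0.990). These 2 intervals are not adjusted for the number of loci, the spread of this ratio over off-promoter sites of the genome was not computed and no alternative was run, so neither is called a difference. Over gene bodies with 2000 bp upstream, the ratios of the 10 genes were between 0.919 (Tet1) and 1.07 (Tet2).

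**Figure D5:**
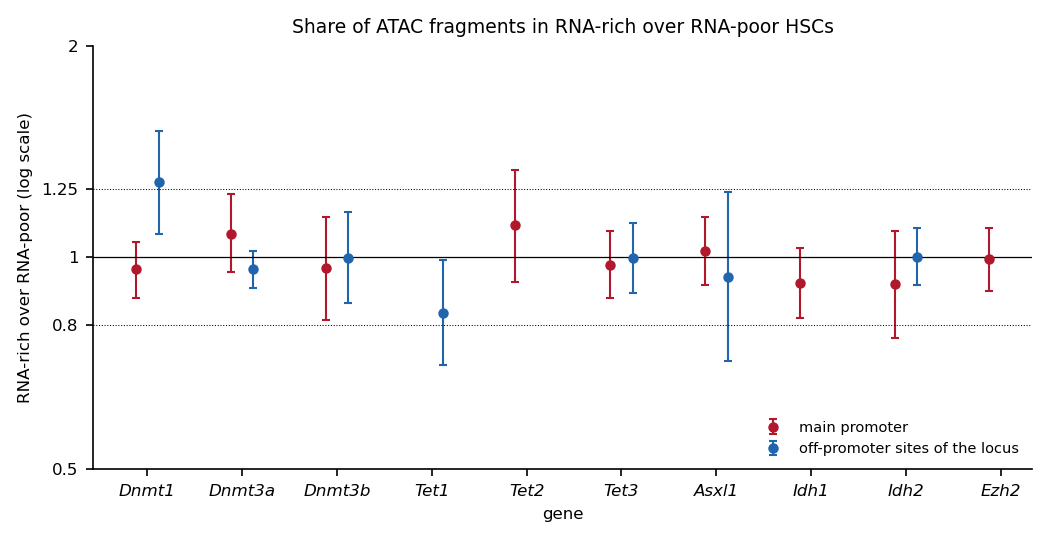
Ratio of the share of ATAC fragments in RNA-rich over RNA-poor HSCs (log axis) at the main promoters and at the off-promoter sites of each locus; bars are exact 95% intervals, the solid line is 1 and the dotted lines are the limits of 25% higher and 20% lower. All 9 tested promoters lay between 0.917 and 1.11, and the off-promoter sites of Dnmt1 (1.28) and Tet1 (0.834) lay farthest from 1.

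Partner genes were given the same promoter window, by which 55.4% of all protein-coding promoters were open. Of 10 genes of DNA methylation and its reading, 8 were open, from Mbd3, a subunit of the NuRD complex, with 4843 fragments downward. Zbtb38, a reader of methylated DNA (17 fragments), and Dnmt3l, the germline cofactor of the de novo enzymes (32), were not. Of 15 Polycomb and BAP1 partners, 14 were open, with the histone chaperone Rbbp4 highest (4273) and the H3K27 demethylase Kdm6b the exception (91). All 9 genes of 2-oxoglutarate metabolism were open, from Idh3b (318) to Ogdh (3446), which encode subunits of mitochondrial enzymes that make and use it. All 27 other genes mutated in clonal hematopoiesis were open, from the H3K9 methyltransferase gene Setdb1 (262) to Stat3 (5834), a cytokine signaling factor. The list medians were 1462, 1937, 1803 and 2013 fragments, against 254 over all genes and 877 over open promoters. Kdm6b and Zbtb38 were judged at 1 start each, and their other starts were not looked at.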

How the data were processed

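Chromatin accessibility was measured in 1 preparation of HSCs by DOGMA-seq. Cell Ranger ARC 2.0.2, run by the authors on the 10x Genomics mm10 reference (release 2020), merged duplicate reads into single fragments and called cells from both modalities. The authors deposited the position of each fragment and counts of fragments and RNA UMIs per barcode. The sources used here do not say whether fragment ends were shifted for the transposase. No deposited count was normalized. Antibody tag counts, whose tags and columns are not named in the matrix, were not used here, and expression of single genes was not analysed here.

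Chromosome lengths were checked against GRCm38, and genes came from GENCODE vM21. A called cell was kept with over 3000 fragments in peaks, and a fragment was counted where 1 of its ends fell in a window. Kept cells gave 16.9 fragments per 1001-bp window on average, so 169 made a window open and 98 a bin. The main start was that of the best APPRIS protein-coding transcript. Transcripts with an incomplete 5′ end were left out and ties went to the most upstream start, both decided after the files were seen. Alternative starts within 500 bp of each other were merged. Intervals are exact Poisson, binomial or conditional binomial intervals at 95%. With 1 library there are no groups of samples to test and no p-values. Thinning drew 3000 fragments per cell with seed 1. Counting and intervals were tested on simulated data. The genes named are the 10, the genes with a start in an open site, the 3 off-promoter sites of each locus with the most fragments, and of each partner list the lowest, the highest and those not open. Genes with a start near but outside a site, namely Angptl6, Dtnb and Gm44949, were named after their values were seen. The sequence of a site and the markers of a further cell type are not reported here. The 10 genes, partner lists, markers and strings were chosen with earlier results of these data known. Python 3.11.15, numpy 2.4.6, scipy 1.17.1, pandas 2.3.3, pysam 0.24.0 and matplotlib 3.10.9 were used.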

Additional observations from a re-analysis of the deposited data

How the results depend on the processing

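The number of open main promoters was 9 under each alternative set of cells, fragments, window and limit, and 10 with the strongest annotated start or, added after seeing the data, with the RefSeq start. The median share of cells at the 10 main promoters was 37.6%. It was 43.9% with 1000 bp and 26.0% with 250 bp on either side, 32.5% in all called cells, 35.4% without the 10% of kept cells with the most fragments, 12.7% after thinning and 20.4% with short fragments. With a limit of 5 or 20 times the genome mean, 249 or 89 bins were open and 49 or 20 off-promoter sites were found, and with a flank of 10 kb 94 and 20. By locus, off-promoter sites at 5 times rose from 0 to 2 for Tet2, to 1 for Idh1 and to 1 for Ezh2, from 1 to 3 for Asxl1 and from 2 to 4 for Dnmt1. At 20 times they fell from 8 to 5 for Idh2, 6 to 3 for Tet3, 4 to 1 for Tet1, 3 to 1 for Dnmt3b and 2 to 1 for Dnmt1, and with a flank of 10 kb from 8 to 1 for Idh2 and 2 to 1 for Dnmt1. Dnmt1 had 1 without the 10% of kept cells with the most fragments, 3 with the shifted grid or after thinning and 4 with short fragments, and Asxl1 had 2 with the shifted grid or short fragments. Dnmt3a had 6 to 10 under all alternatives run. The median ratio of the open alternative starts of Dnmt3a, Tet3 and Idh1 to their main start, 0.396, was 0.503 with 250 bp and 0.439 with short fragments. For Idh1-201 it ranged from 0.157 with short fragments to 0.584 with 1000 bp on either side. Between RNA-rich and RNA-poor cells 0 promoters passed the limits under each of the alternatives run, and the value farthest from 1 was 0.802, for Idh1 without matching on ATAC fragments. Shares of short fragments moved by less than their intervals. The causes of these shifts were not tested. No paired analysis was possible because there was 1 library of each kind and no groups of samples were compared. With 1 preparation, the spread between mice is unknown. The median of 11457 fragments per cell limits what a single cell can show: a promoter with no fragment in a cell is not shown to be closed there.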

Other observations

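Barcodes not called as cells held 3525361 fragments on chromosomes 1 to 19 and X. The Dnmt1 promoter had 33.8 per 1000000 of these fragments, against 73.3 in kept cells, and the Ezh2 promoter 29.5 against 61.5. The Tet2 promoter was nearer between the sets, at 16.2 and 19.7.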
